A study of Mus musculus with 21 samples.

Results

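PTBP1 sites outside annotated genes are the positions at which PTBP1 was crosslinked to RNA where the RefSeq annotation of GRCm38 (GRCm38.p6) has no gene span on either strand. They were taken from the site list that the authors called on the summed cDNAs of 5 iCLIP libraries, leaving out the ribosomal RNA block of chromosome 17. There were 17171 such sites among the 244659 sites of that list, or 7.02%, and they held 39613 of 432167 cDNAs, or 9.17%. A further 225709 sites with 367079 cDNAs lay inside gene spans, and the ribosomal block held 1779 sites with 25475 cDNAs. The sites outside genes were spread over both strands, with 8486 on the plus and 8685 on the minus strand.

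For iCLIP, B cells were taken from spleens of female C57BL/6 mice, for which the labels give no genotype, and stimulated for 48 h with the B cell mitogen LPS, giving 5 libraries. No control immunoprecipitation was used here. The study also holds mRNA-seq of germinal centre B cells 7 days after immunisation, from pools of 3 to 5 C57BL/6 mice, in 4 groups of 4 libraries, of which replicates 1 and 2 were from males and replicates 3 and 4 from females in each group. Light zone (LZ) and dark zone (DZ) cells of cKO mice (CD79acre/+Ptbp1fl/fl) were set against LZ and DZ cells of control mice (CD79a+/+Ptbp1fl/fl). Both genotypes carry loxP-flanked Ptbp1, and the cKO mice carry Cre in place of an allele of Cd79a, which encodes a chain of the B cell receptor, so that deletion starts early in the B lineage. The iCLIP lists therefore come from other cells than the mRNA libraries and carry no knockout condition.

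PTBP1 (polypyrimidine tract-binding protein 1) binds runs of C and U in RNA, mostly in the nucleus, and is best known for repressing exons and for acting on 3′ end processing, RNA stability and translation. In iCLIP the protein is crosslinked to RNA by UV light and the reverse transcriptase stops next to the crosslink, so that each cDNA marks a position. RNA polymerase II transcribes past the 3′ end of most genes before it stops, so that nascent RNA reaches beyond the annotated span. The lists hold positions and cDNA counts only.

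Sequence was available for sites in the window from 250 nt before to 50 nt after an annotated gene start, in the RefSeq promoter table of GRCm38.p6. It held 120 of the 17171 sites (273 cDNAs, 54 gene windows) and none of the 20 stretches with the most cDNAs named below. The following set was picked after the values were seen, to show both kinds of sequence among the tallest of these sites. Each is written 5′ to 3′ on the site's strand, and capitals mark TCTT, TTCT and CTTT, overlaps included, which are short pyrimidine motifs of the kind PTBP1 binds.
H2bc8: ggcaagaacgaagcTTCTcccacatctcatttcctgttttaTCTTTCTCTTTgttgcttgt
H2ac4: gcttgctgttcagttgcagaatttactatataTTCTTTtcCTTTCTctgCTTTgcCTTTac
Nos1ap: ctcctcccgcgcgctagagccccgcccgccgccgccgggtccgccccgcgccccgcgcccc
Arpc2: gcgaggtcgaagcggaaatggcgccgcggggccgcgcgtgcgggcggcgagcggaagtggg
Begain: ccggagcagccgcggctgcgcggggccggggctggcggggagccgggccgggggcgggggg

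The first pair belongs to replication-dependent histone genes, whose copies are near-identical, so that reads may have been split between them. The H2bc8 sequence (chr13:23571365-23571425, plus strand) is centred on base 31, a site of 10 cDNAs 5 nt before the annotated start. This window held 10 sites with 32 cDNAs, all 3 to 14 nt before the start, and replicates 1 to 5 listed 4, 4, 0, 13 and 7 of its cDNAs. The H2ac4 sequence (chr13:23751054-23751114, plus strand) is centred on a site of 7 cDNAs 4 nt before the start, in a window of 10 sites with 31 cDNAs 1 to 11 nt before it. Replicates 1 to 5 listed 3, 2, 0, 19 and 7 cDNAs there. At both histone genes the sites thus lay directly next to the annotated start.

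The other sequences hold none of these motifs. Neither did those at Msmo1 (12 cDNAs), Nt5e (9) and Gm36809 (7), which were also among the tallest but are not printed. Only 33 nt were available for Msmo1 and 50 nt for Nt5e. The printed set thus holds a larger share with motifs than the tallest windows did. Nos1ap (chr1:170589870-170589930, plus strand, opposite to the gene) had 14 cDNAs at base 31, 51 nt before the start, with C and T at 68.9% of its bases. Arpc2 (chr1:74236433-74236493, plus strand), the gene of a subunit of the Arp2/3 actin complex, had 11 cDNAs 54 nt before the start, with C and T at 31.1%. Begain (chr12:109068239-109068299, minus strand) had 10 cDNAs 27 nt before the start, with C and T at 32.8%. Tall sites therefore occurred in pyrimidine-rich and in G-rich sequence.

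Of the 120 sites, 108 had a complete 31 nt window. C and T made up 67.2% ± 17.0 of these windows (SD over sites, which share genes and libraries), against 67.2% around the 610 sites inside genes and 50.0% over all 31 nt windows of the promoter table. A motif was present in 65 of the 108 windows, or 60.2%, against 28.2% of all windows of that length. The 108 windows came from 42 genes and overlapped where sites were adjacent, with 10 sites each at H2bc8 and H2ac4. They are not independent, and 1 pyrimidine run can count many times. The motif shares were 65.4% for the 81 sites on the gene's strand and 44.4% for the 27 on the other strand, beside 27.8% and 28.6% of all windows on those strands. In the replicates' own lists, the C and T share outside genes was 66.1%, 74.5%, 56.8%, 70.6% and 68.5% in replicates 1 to 5, against 61.5%, 66%, 57.4%, 61.9% and 65.1% inside. The differences averaged 4.94 percentage points ± 3.84 (SD, n = 5), were positive in 4 of 5 libraries, and rested on 12 to 39 sites outside genes per library. An exact two-sided sign-flip permutation test gave p = 0.125, and the smallest p that 5 libraries allow is 0.0625. The size depended on the window, with 2 percentage points over 51 nt and 0.201 over 11 nt, where 3 of 5 libraries were positive (exact p = 0.938).

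Most sites outside genes were low. In the pooled list 69.7% had 1 cDNA and the median was 1, against 73.2% and a median of 1 inside genes. The tail was longer outside genes, where 505 sites (2.94%) had 10 or more cDNAs, against 1456 sites (0.645%) inside. The mean was 2.31 cDNAs per site outside and 1.63 inside. The tallest site outside genes had 506 cDNAs, and the tallest inside had 972. The 172 tallest sites, the top 1%, held 22.7% of the cDNAs outside genes, and the top 1% inside held 13.3%.

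In each replicate's own list, the mean log2 cDNA count per site was 0.37, 0.50, 0.60, 0.59 and 0.55 outside genes in replicates 1 to 5, against 0.31, 0.32, 0.29, 0.36 and 0.35 inside. Every library was higher outside genes by this measure, and the 2 ranges did not overlap. By the arithmetic mean, replicate 1 was lower outside, with 1.65 cDNAs per site against 1.68 inside, and 4 of 5 libraries were higher outside. The log2 of the arithmetic mean differed by 0.354 ± 0.223 (SD, n = 5, p = 0.125 in an exact two-sided sign-flip permutation test). The within-library difference in mean log2 count averaged 0.20 ± 0.09 (SD, n = 5), with p = 0.0625 in an exact two-sided sign-flip permutation test, the smallest that 5 libraries can give. Among sites of at least 10 cDNAs the direction turned round: the difference was -0.20 ± 0.22 (n = 5, exact p = 0.125) and positive in 1 of 5 libraries. Without the 20 stretches named below, an alternative chosen after seeing the data, the difference was 0.08 ± 0.09. It was 0.0034 in replicate 1 and 0.01 in replicate 2. These stretches were chosen for their many cDNAs and all lay outside genes, while nothing was removed inside. A smaller difference was therefore built into this alternative. The authors' threshold was set for each region by itself, so the counts that passed it may differ outside and inside genes. Its part in the height difference was not tested.

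Replicate support is the share of pooled-list sites that a replicate's own list holds at the same position and strand. A replicate list holds only sites that passed the authors' threshold in that library, so a site missing from it may still have had cDNAs there. The threshold was set for each region by itself, so it may differ outside and inside genes. Outside genes, 9634 of 17171 sites (56.1%) were in at least 1 of the 5 lists, against 36.1% of sites inside genes. In 2 or more lists were 2083 sites (12.1%), against 4.74% inside, and 222 sites (1.29%) were in all 5, against 0.149% inside. The numbers of sites outside genes in no list and in exactly 1, 2, 3 and 4 lists were 7537, 7551, 1048, 493 and 320.

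Replicates 1 to 5 listed 13.2%, 19.4%, 8.60%, 22.6% and 14.9% of the pooled sites outside genes, against 6.05%, 10.2%, 1.54%, 17.1% and 8.23% of those inside. The difference averaged 7.13 percentage points ± 1.32 (SD, n = 5) and was positive in 5 of 5 libraries, with p = 0.0625 in an exact two-sided sign-flip permutation test, the smallest possible. Counting a replicate site within 15 nt as support raised the share in at least 1 list to 65.0% outside and 50.6% inside. The pooled list was called from the same cDNAs, so this compares both kinds of site and is no independent replication of either.

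Support was compared at equal height as a description, since taller sites are listed more often. Equal height does not make the authors' threshold equal outside and inside genes, and its part in these differences was not tested. Of sites with 1 cDNA, 47.7% outside and 30.5% inside were in at least 1 list. Of those with 5 to 9 cDNAs, 97.7% outside and 85.7% inside were. The mean difference per library ranged between 3.44 percentage points at 1 cDNA and 17.2 at 5 to 9 cDNAs, and all 5 libraries were higher outside in each class up to 10 to 19 cDNAs. At 20 or more cDNAs only 2 of 5 libraries were higher outside, although 58.7% of the 223 such sites outside genes were in all 5 lists, against 41.3% inside.

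**Figure D1:**
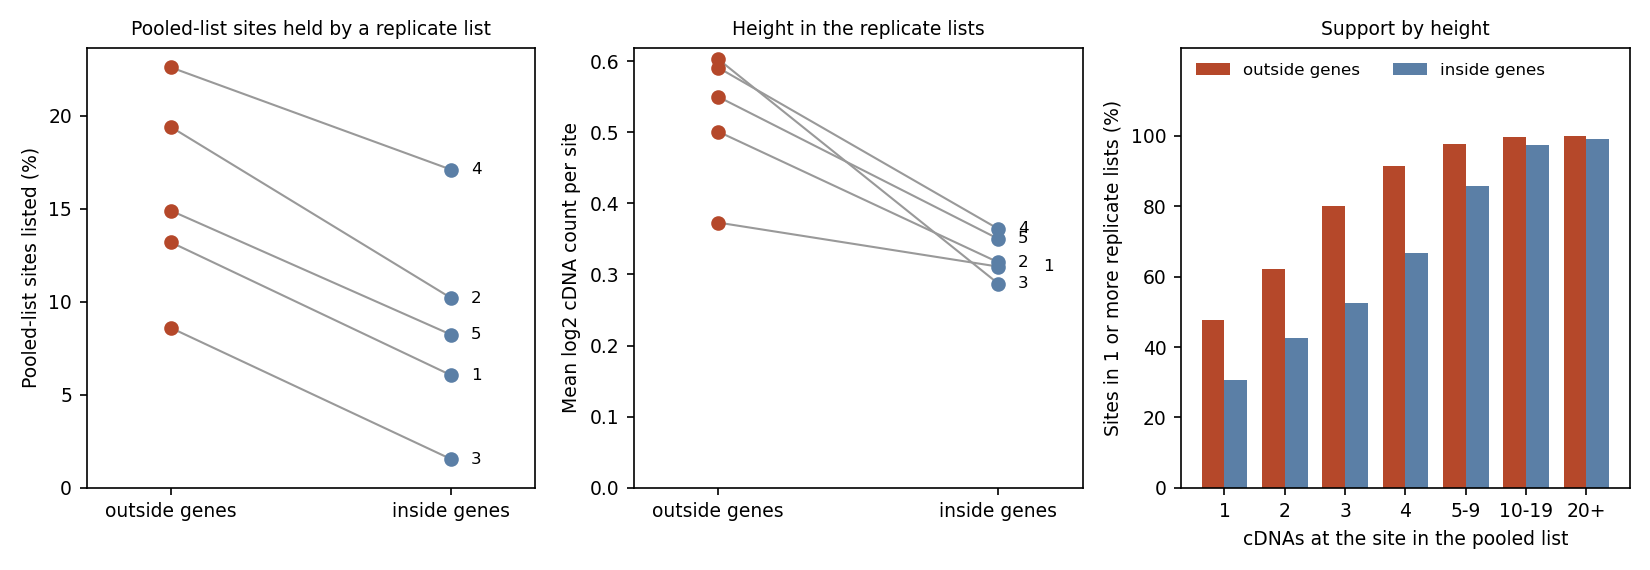
Sites outside (red) against inside genes (blue). Left, percent of pooled-list sites held by each replicate list; middle, mean log2 cDNA count per site in each replicate list, with lines joining the values of 1 library, numbered at the right; right, percent of pooled-list sites in at least 1 replicate list by cDNA count. All 5 libraries are higher outside genes in the left and middle panels, and in the right panel the bars meet at 20 or more cDNAs.

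Replicate 3 stood apart. Its list was the shortest, with 6211 sites and 13055 cDNAs, against 17573 to 45505 sites in the others. Sites outside genes took 28.2% of its cDNAs, against 11.5% to 14.1% in the other 4 lists. Of the pooled sites outside genes, 666 (3.88%) were in the list of replicate 3 alone. Without it, 52.2% of sites outside genes and 35.1% of those inside were in at least 1 of the other 4 lists, and 10.7% and 4.55% in at least 2.

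The lists were checked against markers of cell types. All 8 B cell genes on the marker list held sites, with 6696 cDNAs. None of 6 T cell and none of 5 neutrophil genes did, 1 of 5 macrophage genes held 2 cDNAs, 1 of 4 erythroid genes held 21, 3 of 4 plasma cell genes held 211, and 2 of 6 germinal centre genes held 39. The immunoglobulin and T cell receptor loci held no site outside genes, since the annotated loci span the segments, and 3 sites with 16 cDNAs were mitochondrial and in no replicate list.

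Sites of the same strand at most 15 nt apart formed 6017 clusters. Of these, 1270 were single sites, and 92.6% of all sites outside genes lay in a cluster of at least 2, against 96.8% of sites inside genes. The authors' threshold used windows of 15 nt too, so sites with close neighbours were favoured in the list. These high shares therefore come in part from how the list was called. Clusters of several sites were small, with a median of 2 sites over 7 nt. The largest had 162 sites and 2394 cDNAs. Only 39 clusters reached 100 cDNAs, and they held 29.6% of the cDNAs outside genes.

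Joining sites up to 1000 nt apart gave 5102 stretches, of which 50 reached 100 cDNAs and held 38.1% of the cDNAs. These stretches had different shapes. The 23 that were at most 100 nt long had a median of 13.4 cDNAs per site, and 38.8% of their cDNAs fell on the tallest site (median). The 21 between 100 and 1000 nt had 5.11 cDNAs per site and 13.0% on the tallest. The 6 of 1000 nt or more had 1.7 cDNAs per site and 5.53% on the tallest. A site present in all 5 lists was found in 19 of the 23 short, 14 of the 21 middle and 1 of the 6 long stretches. All were chosen for at least 100 cDNAs. A short stretch, with few positions, reaches these mainly with tall sites, while a long one can reach them with low sites. A site in all 5 lists has at least 5 cDNAs. These differences between the length classes are thus partly set by the choice.

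**Figure D2:**
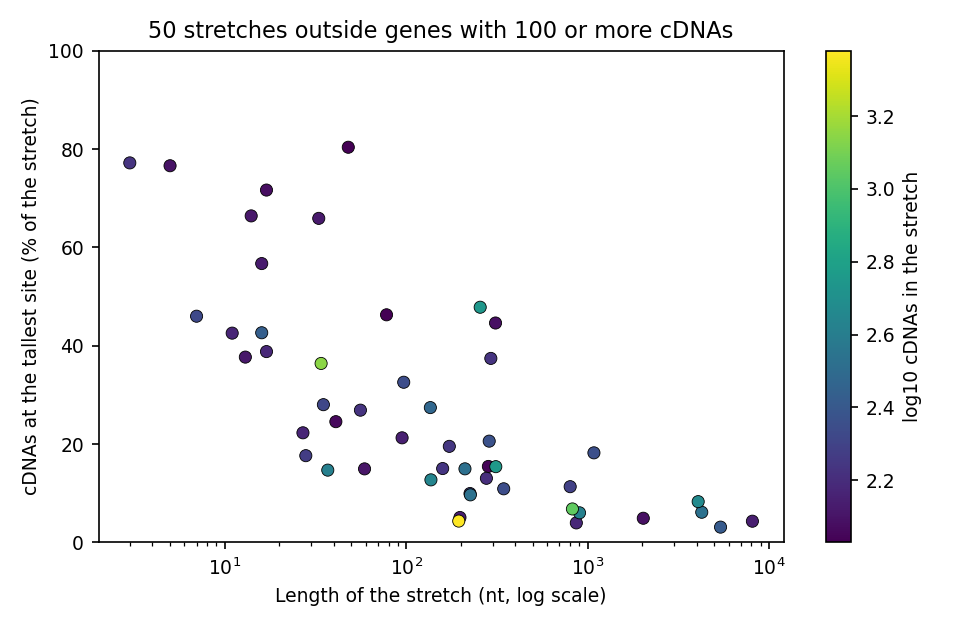
Length of the 50 stretches outside genes with 100 or more cDNAs (x axis, nt, log scale) against the percent of the stretch's cDNAs at its tallest site (y axis); colour gives log10 of the cDNAs. Stretches of at most 100 nt reach 80.4% at 1 site, and the 6 of 1000 nt or more stay at or under 18.2%.

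The 20 stretches with the most cDNAs held 1487 sites and 10715 cDNAs, or 27.0% of all cDNAs outside genes. All 5 libraries listed sites in 18 of them, and 4 libraries did in the other two. The first lay at chr3:5860614-5860808 on the plus strand, with 162 sites in 195 nt and 2394 cDNAs. Replicates 1 to 5 listed 156, 942, 277, 653 and 366 of them, 42 sites were in all 5 lists, and the tallest site held 4.34% of the stretch. The nearest annotated gene, the pseudogene Gm8797, was 109411 nt away from its tallest site. This stretch was dense and far from any gene.

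The second lay at chr1:144224803-144224836 on the minus strand, with 22 sites in 34 nt and 1390 cDNAs. Replicates 1 to 5 listed 250, 161, 41, 615 and 323 cDNAs there. It held the tallest site outside genes, of 506 cDNAs, for which the replicates listed 123, 35, 21, 204 and 123. A library can show at most 256 distinct molecules per position with 4 random barcode bases, and the 204 of replicate 4 was the highest count that any replicate list had at a site outside genes. The pseudogene Rbm6-ps2 was 1028 nt away and Rgs1, a regulator of G protein signalling that dampens chemokine responses in B cells, 19849 nt away. With this stretch, 4 of the 10 tallest sites outside genes lay within 4 adjacent positions.

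The third lay at chr6:3200765-3201589 on the plus strand, behind the 3′ end of the lncRNA gene LOC115490388, with 140 sites and 1116 cDNAs over 825 nt. Replicates 1 to 5 listed 72, 222, 113, 418 and 280 cDNAs. The gene itself held no site on its strand.

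The fourth, at chr8:3754428-3754739 on the minus strand, had 571 cDNAs, of which replicates 1 to 5 listed 58, 165, 70, 173 and 98. Its nearest gene was Cd209a, which encodes a C-type lectin of dendritic cells, 5458 nt away. The fifth, at chr18:54698925-54699180, had 554 cDNAs, with 22, 132, 193, 169 and 35 listed and 47.8% of the cDNAs at 1 site. Here replicate 3, the shortest list, had the most cDNAs, which was also so for the twentieth stretch, at chr11:62240498-62240504, where replicates 1 to 5 listed 19, 52, 115, 17 and 10 of 213 cDNAs. At the fourteenth, chr7:99497739-99497754, replicate 5 listed 146 of the 272 cDNAs and replicate 3 listed 1.

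Long stretches showed another form. At chr19:12524656-12528725, 245 sites with 470 cDNAs covered 4070 nt of the minus strand, and replicates 1 to 5 listed 26, 95, 7, 166 and 90 cDNAs. At chr11:106746255-106750513, 185 sites with 342 cDNAs covered 4259 nt, and 51, 44, 0, 70 and 48 cDNAs were listed. At chr17:17522300-17527705, 166 sites with 257 cDNAs covered 5406 nt from 18 nt behind the 3′ end of Lnpep, which encodes the insulin-regulated aminopeptidase, and 24, 22, 0, 79 and 42 cDNAs were listed. None of these held a site in all 5 lists, and replicate 3 had few or none of their cDNAs.

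A stretch at chr11:87757016-87758099 began 89 nt behind the hairpin of Mir142, a microRNA gene of blood cells. It held 71 sites with 225 cDNAs, and replicates 1 to 5 listed 31, 56, 3, 60 and 24. The hairpin itself held no site on its strand. Its tallest site lay 199 nt from the span of the protein-coding gene Tspoap1.

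**Figure D3:**
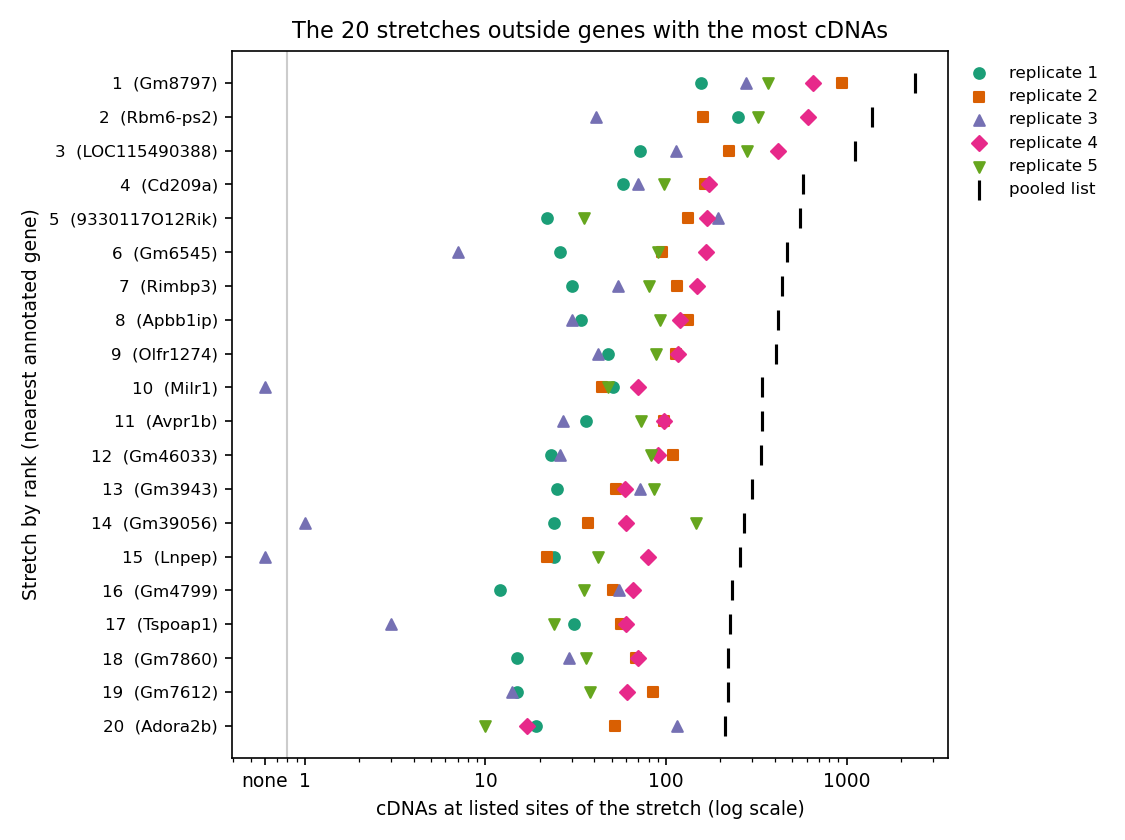
cDNAs at listed sites of the 20 stretches outside genes with the most cDNAs (rows, by rank, with the nearest annotated gene), on a log axis; coloured symbols are the 5 replicate lists, black bars the pooled list, and symbols left of the grey line stand for no listed site. Replicate 3 lists none in ranks 10 and 15, and has the most cDNAs of the 5 in ranks 5 and 20.

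The median distance to the nearest gene span was 6944 nt, with quartiles at 2015.5 and 26353.5 nt and a maximum of 607602 nt. Within 10000 nt of a gene lay 57.4% of the sites with 54.4% of the cDNAs. Sites up to 10000 nt from a gene had a mean of 2.18 cDNAs, with 10.5% in at least 2 lists, and those between 10000 and 50000 nt had 2.35 cDNAs and 14.8%. The 2839 sites more than 50000 nt away had 2.67 cDNAs and 13.6%, but 162 of them, with 2394 of their 7567 cDNAs, belonged to the first stretch above. Without it, an alternative chosen after seeing the data, they had 1.93 cDNAs and 9.45%. The nearer classes kept their own tallest stretches in this alternative, so its values cannot be ranked against theirs. Of the 505 sites with at least 10 cDNAs, 274 lay more than 10000 nt from any gene.

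Gene strands were known for 28097 of 49997 annotated genes, and for 79.9% of the protein-coding ones. Where they were known, 99.2% of the sites inside genes lay on the gene's strand. By the nearest gene within 10000 nt, 3209 sites (18.7%) lay behind a 3′ end on the gene's strand and 932 (5.43%) behind a 3′ end on the other strand. Before a 5′ start lay 1143 (6.66%) on the gene's strand and 1169 (6.81%) on the other. The nearest gene had no known strand for 3405 sites (19.8%), and 7310 (42.6%) were more than 10000 nt from any gene.

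Density was highest directly behind 3′ ends on the gene's strand. In the first 1000 nt there were 912 sites, or 44.6 per megabase, and in the next 1000 nt 42.9 per megabase. Density was 26.9 between 2000 and 5000 nt, 12.1 between 5000 and 10000 nt, 7.62 between 20000 and 50000 nt and 4.21 beyond. In the first 1000 nt behind 3′ ends on the other strand it was 10.4, and before starts it was 15.1 on the gene's strand and 15.3 on the other, beside 5.89 over all bases outside genes. The rise was thus found behind 3′ ends on the gene's own strand. Between 7000 and 8000 nt the density was 10.6 there, beside 12.3 behind 3′ ends on the other strand.

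**Figure D4:**
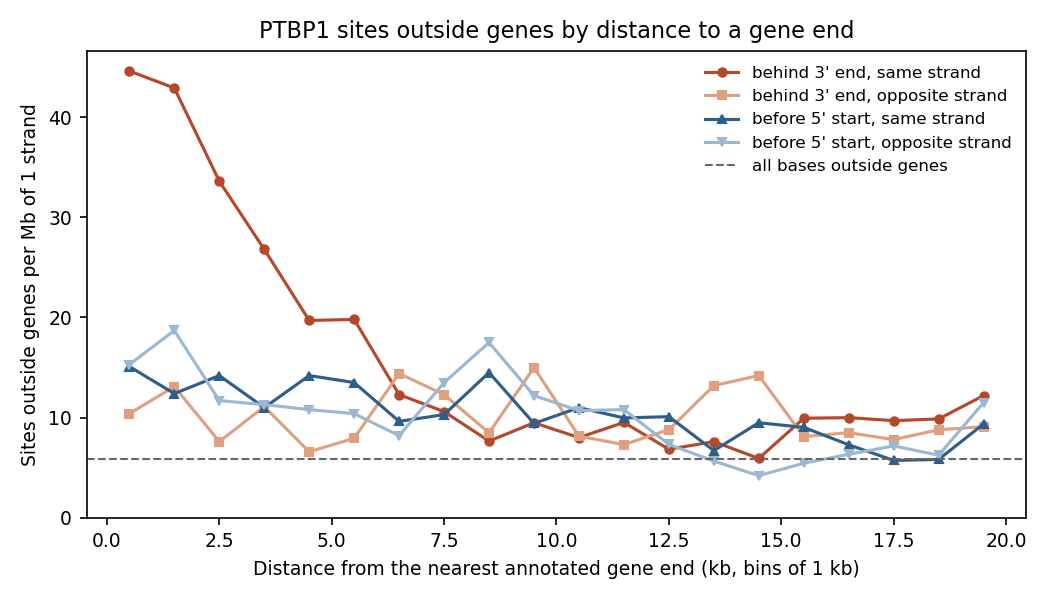
Sites outside genes per megabase of 1 strand (y axis) against the distance from the nearest annotated gene end of each kind (x axis, kb, bins of 1 kb), with all bases outside genes as the dashed line at 5.89. Behind 3′ ends on the gene's strand the density is 44.6 in the first bin and 10.6 between 7000 and 8000 nt.

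Of the 16627 sites on chromosomes with gene strands, 4033 (24.3%) lay at most 10000 nt behind the nearest same-strand 3′ end, with 19.9% of the cDNAs, and 5.91% of all bases outside genes lay there. Only ends of genes of known strand were counted here. Another gene can therefore lie nearer to a site than the gene it was assigned to. By the nearest gene of any kind, 3209 sites lay behind a 3′ end on the gene's strand. The cDNA shares in replicates 1 to 5 were 16.7%, 15.6%, 14.9%, 19.2% and 19.4%, with a mean of 17.2% ± 2.06 (SD, n = 5). All 5 were above the share of bases. Sites behind 3′ ends were low: the share was 25.3% among sites of 1 cDNA, 15.4% among those of at least 10 cDNAs, and 13.0% among sites in all 5 lists.

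These 4033 sites were assigned to 826 genes of known strand, of which 657 were protein-coding and 156 lncRNA genes. The median was 3 cDNAs per gene, 122 genes had 1 site, and the 20 genes with the most cDNAs held 42.1% of them. Behind some genes the cDNAs lay at 1 spot. Dennd5a, which encodes an activator of Rab GTPases, had 171 cDNAs at 3 sites 5042 to 5044 nt behind its end, with 132 at 1 site, and 10 cDNAs inside the gene. Replicates 1 to 5 listed 41, 0, 41, 33 and 55. Rtl8a, a gene derived from a retrotransposon with near-identical copies, had 90 cDNAs at 5 sites and none inside, and Rtn2, a reticulon gene, had 108 cDNAs at 24 sites within 78 nt and none inside.

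Other genes held sites inside as well as behind their end. Lnpep had 257 cDNAs at 166 sites behind its end and 244 cDNAs at 171 sites inside, with at most 8 cDNAs at 1 site behind. Pou2af1, a coactivator that B cells need to form germinal centres, had 126 cDNAs at 79 sites 3111 to 8402 nt behind, with at most 6 at 1 site, and 1347 cDNAs inside. The 5 replicates listed only 9, 0, 0, 14 and 1 of those behind. Cd47, the gene of a surface protein that inhibits phagocytosis, had 85 cDNAs at 44 sites 361 to 1428 nt behind and 428 inside. Fcgr2b, the inhibitory Fc receptor of B cells, had 69 cDNAs at 55 sites 509 to 1759 nt behind and 321 inside. Cd36, which encodes a fatty acid transporter, had 155 cDNAs at 22 sites 2026 to 4919 nt behind, 33 of them at 1 site, and 247 inside. Tra2a, a splicing factor gene, had 117 cDNAs at 19 sites 7367 to 8882 nt behind, 28 of them at 1 site, and 91 inside.

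Genes with sites behind their end were more often highly expressed in the germinal centre libraries. Among tested genes with a known strand, 11.4% of the fifth with the highest level had such sites, against 6.32%, 5.37%, 3.78% and 1.87% in the next 4, from high to low. The levels are of germinal centre cells, not of the LPS cultures.

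The mRNA-seq libraries then showed how these genes differed in level between cKO and control cells. Ptbp1 itself was at 82.5 to 121 CPM (gene counts scaled to library size) in LZ cKO against 353 to 420 in LZ control libraries, and at 92.1 to 114 in DZ cKO against 416 to 486 in DZ control libraries. Of the 826 genes, 711 were matched and 601 tested. In the light zone 13 were called in cKO against control, 8 higher and 5 lower, at an adjusted p under 0.05 (edgeR quasi-likelihood test, Benjamini-Hochberg over all 15789 genes). That is 2.16% of those tested, beside 1.08% of all genes tested. In the dark zone 8 were called, 5 higher and 3 lower, which is 1.33% beside 0.627% of all genes. All genes tested include genes of unknown strand, which could not be among the 826, so the backgrounds are not fully alike. The median log2 fold change was -0.0021 in LZ and -0.02 in DZ, beside 0.02 and 0.01 over all genes.

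Since these genes were more often highly expressed, the called shares are also given by level. The tested genes of known strand were cut into 5 equal groups by level, and the shares of all genes by group are of these. In the highest group, 3.35% of the 239 genes with sites behind their end were called in LZ, beside 1.68% of all. In DZ the share was 1.67%, beside 1.01%. In the next group none of 132 was called in either zone, beside 1.2% of all in LZ and 0.575% in DZ. In group 3 the shares were 3.57% of 112 in LZ, beside 1.92% of all, and 2.68% in DZ, beside 1.63%. In group 2 they were 1.27% of 79 in each zone, beside 1.15% of all in LZ and 0.479% in DZ, and in the lowest group none of 39 was called. The part of level in the counts was not tested. With the sort day as a block, which pairs the libraries, 53 genes (8.82%, beside 5.5% of all) were called in LZ and 31 (5.16%, beside 3.27% of all) in DZ. DESeq2 called 37 (6.45%, beside 4.66% of all) in LZ and 22 (3.66%, beside 2.74% of all) in DZ. Leaving out 1 library gave 6 to 10 called genes in LZ, beside 58 to 137 of all genes (171 with every library), and 2 to 7 in DZ, beside 49 to 100 of all genes (99 with every library). The shares over all genes are not given for these settings. Markers of other cell types also had higher median summed levels in cKO than in control libraries, with overlapping ranges. All 5 macrophage markers were detected in every cKO and every DZ control library, and 4 of the 5 in every LZ control library. Their summed level was 98.1 to 452 CPM in LZ cKO against 32.3 to 366 in LZ control libraries (medians 205 and 55.6). It was 50 to 1070 in DZ cKO against 17.2 to 375 in DZ control libraries (medians 425 and 30.1). The 6 T cell markers summed to medians of 135 CPM in LZ cKO and 65.9 in LZ control, and 60.4 in DZ cKO and 23.6 in DZ control libraries. The 5 neutrophil markers had medians of 11.9 in LZ cKO and 3.51 in LZ control, and 26.7 in DZ cKO and 11.2 in DZ control libraries. The 4 plasma cell markers had medians of 1820 in LZ cKO and 1620 in LZ control, and 5650 in DZ cKO and 2800 in DZ control libraries, and the 4 erythroid markers 10.8 and 8.95 in LZ, and 11.4 and 2.45 in DZ. Single markers went the other way in LZ. Mean CPM in LZ cKO against LZ control was 5.46 against 7.54 for Prdm1 and 312 against 332 for Xbp1. It was 5.12 against 6.08 for Elane, 9.69 against 11.3 for Mpo, 0 against 0.108 for Ly6g and 1.49 against 1.86 for Hbb-bs. The other markers of these cell types, and all of them in DZ, had higher means in cKO. The part of these cell types in the fold changes was not tested.

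Ptbp2, the paralogue whose exon PTBP1 represses, had the largest fold change among the called genes. It had 12 sites with 17 cDNAs 132 to 4095 nt behind its end. Its level was 126, 143, 186 and 182 CPM in LZ cKO libraries, against 16.7, 13.7, 8.60 and 13.6 CPM in LZ control libraries. DZ cKO libraries had 195, 182, 290 and 195 CPM of Ptbp2, against 14.7, 19.3, 14.1 and 16 CPM in DZ control libraries. The groups did not overlap in either zone. The log2 fold change was 3.60 ± 0.22 (SE, adjusted p = 2.05e-07, edgeR) in LZ and 3.75 ± 0.22 (adjusted p = 1.16e-07, edgeR) in DZ.

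Among genes of the immune response, Fcgr2b was higher in cKO cells of both zones. It had 249, 277, 268 and 276 CPM in LZ cKO, against 221, 212, 222 and 219 CPM in LZ control libraries, and 213, 227, 207 and 237 CPM in DZ cKO, against 170, 165, 188 and 175 CPM in DZ control libraries. The groups did not overlap, and the log2 fold changes were 0.29 ± 0.07 (SE, adjusted p = 0.0436, edgeR) and 0.34 ± 0.07 (adjusted p = 0.0241). The call was lost in 8 of 12 alternatives in LZ (adjusted p up to 0.13) and in 6 of 12 in DZ (up to 0.098), with the sign kept. Fcgr2b is also a macrophage gene. Aim2, a sensor of cytosolic DNA with 2 sites 72 and 77 nt behind its end, was lower, at 26.9, 32.3, 26.3 and 26.2 CPM in LZ cKO against 52.2, 53.8, 41.7 and 39.8 CPM in LZ control libraries. Its log2 fold changes were -0.75 ± 0.12 (SE, adjusted p = 0.00659) in LZ and -0.68 ± 0.12 (adjusted p = 0.014) in DZ.

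Gsn, which encodes the actin-severing protein gelsolin, had 1069, 1175, 1177 and 1255 CPM in LZ cKO against 669, 673, 777 and 730 CPM in LZ control libraries. Its log2 fold changes were 0.71 ± 0.12 (SE, adjusted p = 0.00718, edgeR) in LZ and 0.67 ± 0.12 (adjusted p = 0.0125) in DZ, with 2 sites behind its end. Cd79a, of which an allele holds Cre in cKO mice by design, fell by 0.98 in LZ (adjusted p = 0.00151, edgeR) and by 1.27 in DZ (adjusted p = 9.97e-05) on the log2 scale, with 1 site of 3 cDNAs 156 nt behind its end. These 5 genes were the ones called in both zones without the block.

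Called in LZ only by the threshold were Cmya5, a muscle protein gene, at 1.68 ± 0.31 (log2, SE), the inhibitory lymphocyte adaptor Sit1 at 0.87 ± 0.20, the interferon-inducible Ifi206 at 0.72 ± 0.17, 2310001H17Rik at 0.69 ± 0.11 and the ubiquitin ligase gene Herc3 at 0.49 ± 0.09. Eaf2, a transcription elongation factor gene, was lower at -0.65 ± 0.14, the mRNA export factor gene Alyref at -0.55 ± 0.13 and the lipid raft gene Rftn1 at -0.36 ± 0.07. Called in DZ alone were the carbonyl reductase gene Cbr1 at 0.66 ± 0.14, Def8 at 0.56 ± 0.12 and Mdfic at -0.56 ± 0.11. Every one of these had the same sign in the other zone, and the test of the difference between zones gave an adjusted p of 0.9998 for each (edgeR interaction contrast), so no difference between zones was shown. With the sort day as a block, 2310001H17Rik, Herc3, Cmya5 and Alyref were also called in DZ, with adjusted p-values of 0.0172, 0.0172, 0.042 and 0.0177 (edgeR), and Mdfic was also called in LZ, at 0.0439. Apart from Fcgr2b and Ptbp2, these called genes had at most 15 cDNAs behind their end.

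Of the 10 genes with the most cDNAs behind their end, 7 were tested and none was called in either zone. Lnpep had a log2 fold change of 0.33 ± 0.12 (SE) in LZ (adjusted p = 0.237, edgeR) and 0.14 ± 0.12 in DZ (adjusted p = 0.762). Dennd5a was at 0.54 ± 0.17 in LZ (adjusted p = 0.172) and 0.58 ± 0.17 in DZ (adjusted p = 0.158). Pou2af1 was at -0.02 ± 0.14 in LZ and -0.23 ± 0.14 in DZ, Cd36 at 0.09 ± 0.23 and 0.23 ± 0.23, Tra2a at -0.20 ± 0.10 and -0.26 ± 0.10, and Cd47 at 0.23 ± 0.12 and 0.25 ± 0.12. Rtl8a was at most at 1.13 CPM in any library. With the sort day as a block Dennd5a was called in both zones, at an adjusted p of 0.0225 in LZ and 0.0194 in DZ (edgeR), and no other gene of these 7 was.

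**Figure D5:**
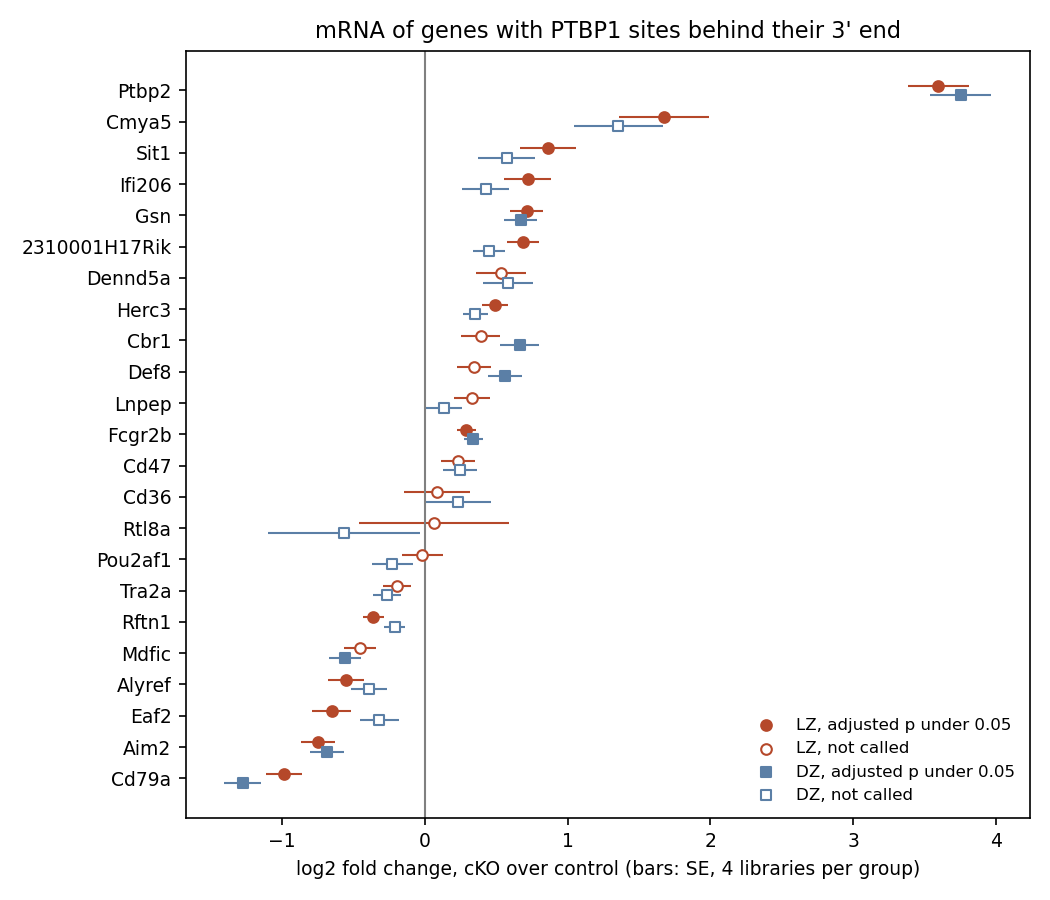
log2 fold change of cKO over control (x axis, bars are SE, 4 libraries per group) for the named genes with PTBP1 sites behind their 3′ end; circles are LZ, squares DZ, filled where the adjusted p is under 0.05. Ptbp2 stands at 3.60 and 3.75, and Cd79a lies lowest at -0.98 and -1.27.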

How the data were processed

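The members and lists were chosen with earlier results of these data known. The score deposited for each iCLIP site is a signed cDNA count (positive for the plus, negative for the minus strand), and its absolute value was used. The authors' threshold, per the file headers, was an FDR of 0.05, from 100 permutations in windows of 15 nt, for each region by itself (mm10, Ensembl 75), and replicates were summed before the pooled list was called. Bowtie was used per the submitters' processing notes, while the sources used here do not give how reads with several matches were treated. The mRNA-seq values are raw counts per gene as deposited (Trim Galore 0.4.2, HISAT2, HTSeq, per the submitters' processing notes), with 26823882 to 34240096 counts per library after leaving out 5 summary lines that held 41.4% to 49.8% of all entries.

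Sites were set against RefSeq gene spans (GRCm38.p6) with Python 3.11.15, numpy and pandas. No genome of the build was used, so sequence was read only from the RefSeq promoter table, and the planned comparison of C and T around sites covers only sites in it. Gene strands came from that table and the microRNA table, which left 544 sites on chromosome 18 or mitochondrial DNA without strand-aware distances. Stretches were named by rank: the 20 with the most cDNAs and the 10 tallest sites. Genes were named where a site lay at most 10000 nt behind their 3′ end on their strand and they were called or among the 10 with the most cDNAs. The iCLIP libraries were compared by exact sign-flip permutation over 5 libraries. Nothing says that the iCLIP libraries came from separate animals, so their spread may be technical. Read counts were fitted with edgeR 4.0.16 (filterByExpr with a minimum of 10, TMM, robust quasi-likelihood) on all 16 libraries in 1 fit, without the sort day. The labels say that a replicate number marks a sort day shared by both genotypes, and the deviations of same-numbered libraries correlated at 0.0979 to 0.325. Alternatives were the day as a block, DESeq2 1.42.0, other scaling, no filter, other distances and leaving out each library. The iCLIP counts cover counting error only.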

Additional observations from a re-analysis of the deposited data

Results flagged for a closer look

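Values of 118 groups of 4 or 5 libraries were examined for a library far from the rest, and 11 were flagged, where chance flags about 1 in 20 groups.

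Replicate 3 of the iCLIP had 28.2% of its list's cDNAs outside genes, against 11.5% to 14.1% in the other 4 lists. As percent of each list's cDNAs outside genes, the fifth stretch (chromosome 18) held 5.24% in replicate 3, against 0.538% to 1.8% in the others. The twentieth stretch (chromosome 11) held 3.12% in replicate 3, against 0.176% to 0.71%. The fourteenth (chromosome 7) held 2.57% in replicate 5, against 0.0271% to 0.633%. The seventh (chromosome 16) held 0.733% in replicate 1, against 1.41% to 1.57%. Replicate 3, the shortest list, gave 3 of these 5 values.

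Among genes with sites behind their 3′ end, Ptbp2 was at 290 CPM in DZ cKO replicate 3, against 182 to 195 in the other DZ cKO libraries. Aim2 was at 32.3 CPM in LZ cKO replicate 2, against 26.2 to 26.9, and Sit1 at 42.3 CPM in LZ cKO replicate 1, against 27.2 to 29.5. Rftn1 was at 476 CPM in LZ control replicate 2, against 489 to 491, and Def8 at 30.3 CPM in LZ control replicate 3, against 23.9 to 24.8. Herc3 was at 71.9 CPM in DZ control replicate 3, against 91.5 to 93.3. For none of the 23 named genes did the test show a difference in response between the zones, which does not show that the responses were equal.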

How the results depend on the processing

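The higher cDNA count per site outside genes kept its direction under 11 of 12 alternatives and was -0.20 (log2) for sites of at least 10 cDNAs; leaving out 1 library gave 0.17 to 0.23. The replicate support difference kept its direction under all 13 alternatives (5.13 to 11.3 percentage points; 6.61 to 7.53 when leaving out 1 library), and the C and T difference in promoter windows under all 8, though its size was 2 over 51 nt and 0.201 over 11 nt (up to 6.31 without a library). No alternative could pass 0.05, since 5 libraries cannot, so these p-values say nothing about stability. C and T at sites of at least 10 cDNAs, or with widened gene spans, could not be computed for lack of sites in promoter windows. The number of sites outside genes was 7310 with gene spans widened by 10000 nt and 505 for at least 10 cDNAs. Added after seeing the data, it was 9634 for sites in at least 1 replicate list, 2083 in at least 2, and 8968 in a list other than that of replicate 3. The number of clusters was 5858 with sites joined within 30 nt and 5571 within 100 nt. The cDNA share behind 3′ ends was 15.3% within 5000 nt and 26.3% within 20000 nt.

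Genes called behind 3′ ends numbered 53 in LZ and 31 in DZ with the replicate block (8.82% and 5.16%, beside 5.5% and 3.27% of all genes). They numbered 37 and 22 with DESeq2 (6.45% and 3.66%, beside 4.66% and 2.74% of all genes). With no filter on low counts 7 and 4 of 639 were called (1.1% and 0.626%), and calls over all genes were 102 and 73. The share over all genes is not given for this setting, so these percentages cannot be set against it. Leaving out 1 library gave 6 to 10 in LZ (58 to 137 of all genes) and 2 to 7 in DZ (49 to 100 of all genes). The LZ count was lowest without LZ cKO replicate 2 (6, beside 62 of all genes) or LZ control replicate 4 (6, beside 58). It was 7 without LZ control replicate 1 (beside 76) and 8 without LZ control replicate 3 (beside 71). The DZ count was 2 without DZ cKO replicate 2 (beside 49). It was 4 without DZ cKO replicate 4 (beside 62) or DZ control replicate 2 (beside 83). Without DZ cKO replicate 1 (beside 69) or DZ control replicate 3 (beside 62) it was 5. Calls over all genes thus fell in each of these settings too, from 171 in LZ and 99 in DZ. They are counts without the share of genes tested, so they do not show whether these genes differed from all genes there. Over 12 alternatives, the LZ calls of Ptbp2, Aim2, Cd79a, Gsn and 2310001H17Rik and the DZ calls of Ptbp2 and Cd79a were kept. Herc3 in LZ was lost without LZ cKO replicate 2 (adjusted p = 0.0533, edgeR), Gsn in DZ without DZ cKO replicate 2 (adjusted p = 0.0514, edgeR), and Aim2 in DZ without DZ cKO replicate 2 or DZ control replicate 3 (adjusted p = 0.0564 and 0.0505, edgeR). Fcgr2b was lost in 8 of 12 in LZ and 6 of 12 in DZ, and the other calls were lost in 4 to 10 of the 12. In LZ, 3 uncalled genes near 0 changed sign when 1 library was left out: Cd36 (-0.0737 to 0.265 log2), Pou2af1 (-0.123 to 0.0611) and Rtl8a (-0.138 to 0.374). The causes were not tested. Sites of 1 cDNA, which are most sites outside genes, allow no statement on differences between libraries.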
